A study of Punica granatum with 4 samples.

Results

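In pomegranate leaves kept under drought, 248 of the 27893 genes measured had a lower RNA level in the plants sprayed with 90 µM abscisic acid (ABA) than at 0, 30 and 60 µM, and levels at those other doses within 1.69 times of each other. They were chosen by their levels in these same libraries. CPM is a gene's count per 1000000 counts of its library, and 0.1 CPM was added before any ratio. A gene had to average at least 2 CPM over the 4 libraries. Its smallest value at 0, 30 and 60 µM had to be at least 2 times its value at 90 µM, and the largest of those 3 had to stay under 1.69 times the smallest. The 100 most abundant genes were left out, and 0 of them met the other limits. Of the 17435 genes that could have passed, 1.42% did.

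The plants were rooted cuttings of Punica granatum, wild type, of the strain labelled Hongmanao, aged 180 days. They had grown for 90 days before the drought. All of them, the water-sprayed ones included, then stood in soil held at 30% to 35% of field capacity. They received 5 mL of spray a day, holding ABA at 0 (water), 30, 60 or 90 µM. Each dose had 1 library of leaf RNA, and the labels do not say how many plants it came from. No watered plants are among the samples, so every level here is a level under drought.

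ABA is the hormone that plants make in drying tissue. It binds soluble receptors, which then block type 2C protein phosphatases, and this frees SnRK2 kinases that close stomata and activate bZIP transcription factors. In leaves the hormone is known both for raising genes of water-stress protection and for lowering genes of growth and photosynthesis. Whether the 248 genes have any of these roles is not known here. The gene table gives only LOC identifiers, 0 of the 248 carry a name of their own, and no product description was used. The leaf label was not checked against marker genes for the same reason.

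Library totals were 22118468 counts with water, 24052618 with 30 µM ABA, 28366719 with 60 µM and 26590290 with 90 µM, so that 3 counts equal 0.106 to 0.136 CPM. A dose was sequenced as 1 library, so its spread between plants or libraries is unknown, and the rule used all 4 libraries. All levels and ratios of the 248 genes are therefore descriptions with no test. The intervals given are exact 95% conditional binomial intervals and cover counting error only. The 100 most abundant genes of each library took 11.5% of the counts with water, 11.9% with 30 µM ABA, 13.0% with 60 µM and 13.8% with 90 µM. The TMM scaling factor, which allows for shifts in the make-up of a library, was 1.03, 1.01, 1.02 and 0.940 at those doses. It was thus lowest at 90 µM, and whether the share of the most abundant genes lies behind this was not tested. Counts of members that depend on this scaling are given with TMM as well where they were computed.

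As a group the genes took 0.707% of the counts with water, 0.679% with 30 µM ABA, 0.650% with 60 µM and 0.249% with 90 µM. Their median level was 10.8 CPM with water, 10.2 with 30 µM ABA, 9.94 with 60 µM and 3.27 with 90 µM. In bulk leaf RNA, less RNA per cell and fewer cells of a type cannot be told apart. All genes averaging at least 2 CPM had medians of 27.0, 26.0, 26.5 and 24.3 CPM at those doses. The median of the 248 thus stayed almost level up to 60 µM and was low in the last library. None of them was silent at 90 µM. The lowest count there was 10, and 23 genes lay under 1 CPM.

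**Figure D1:**
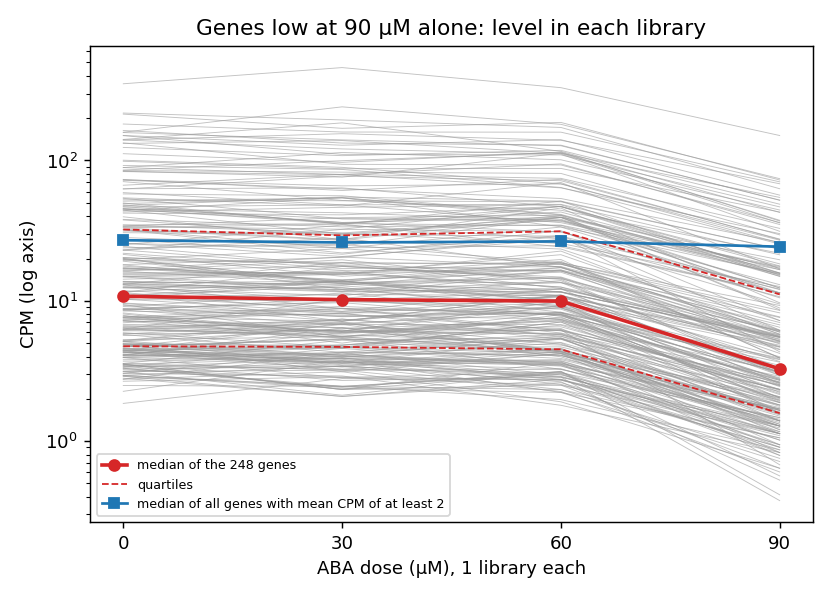
CPM (log axis) of each of the 248 genes (grey lines) in the libraries at 0, 30, 60 and 90 µM ABA. Their median (red line) was 10.8, 10.2, 9.94 and 3.27 CPM with its quartiles dashed, and the median of all genes averaging at least 2 CPM (blue) stayed between 24.3 and 27.0.

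The drop was mostly modest. The smallest of the levels at 0, 30 and 60 µM was a median 2.36 times the level at 90 µM (quartiles 2.13 and 2.73, a median log2 ratio of -1.24 for 90 µM over the smallest). Only 36 genes had a ratio of 3 or more, 6 of 4 or more and 2 of 5 or more, while 86 lay under 2.2. The genes with the deepest drop were not those with the most reads. CPM is a share of reads and depends on transcript length as well as abundance. Where levels of different genes are set side by side here, they therefore stand for numbers of reads only.

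The deepest drop was that of LOC116209471, a protein-coding gene with 178 counts with water, 134 with 30 µM ABA, 176 with 60 µM and 18 with 90 µM. In CPM this is 8.05, 5.57, 6.20 and 0.677, a smallest ratio of 7.30. Its level at 90 µM was 0.0841 times that at 0 µM, with a counting interval from 0.0487 to 0.137. LOC116205650, also protein-coding, was next with 4.48, 3.70, 2.86 and 0.376 CPM, a smallest ratio of 6.21. Only 10 reads stand behind its value at 90 µM, and its ratio to 60 µM of 0.132 has an interval from 0.0609 to 0.255. Both genes had few reads in the 90 µM library alone.

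The third was LOC116202235, a long non-coding RNA (a transcript with no known protein product), with 508 counts with water, 423 with 30 µM ABA, 403 with 60 µM and 81 with 90 µM. Its levels of 23.0, 17.6, 14.2 and 3.05 CPM were lower at each dose than at the dose before, with the largest step from 60 to 90 µM. LOC116215246 had 4.39, 3.45, 2.64 and 0.527 CPM and was ordered in the same way. LOC116202605 had 3.12, 2.12, 3.14 and 0.414 CPM, with no such order among the other doses.

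LOC116202394 and LOC116202792 had more reads. LOC116202394 had 400, 491, 815 and 115 counts, or 18.1, 20.4, 28.7 and 4.32 CPM, so it was highest at 60 µM, the dose just before the low one. LOC116202792 had 360, 471, 383 and 88 counts, or 16.3, 19.6, 13.5 and 3.31 CPM, and was highest at 30 µM. The other 5 of the 12 genes with the largest ratios (LOC116211393, LOC116203125, LOC116214200, LOC116192557 and LOC116208541) had smallest ratios of 3.62 to 3.93 and between 15 and 50 counts at 90 µM. For each of the 12, the counting intervals against 0, 30 and 60 µM lay wholly below 0.5.

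**Figure D2:**
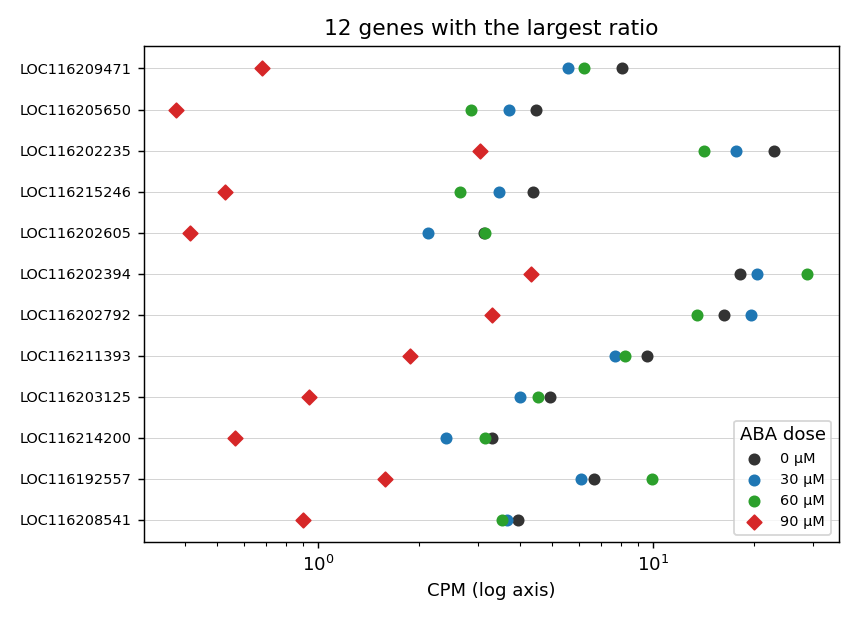
CPM (log axis) in each library for the 12 genes with the largest ratio of the smallest level at 0, 30 and 60 µM to the level at 90 µM, deepest at the top. In each row the red diamond (90 µM) lies far left of the 3 circles (0, 30 and 60 µM), from 0.376 CPM for LOC116205650 to 4.32 CPM for LOC116202394.

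Among the members with the most reads, LOC116202437 had 7789 counts with water, 11048 with 30 µM ABA, 9371 with 60 µM and 4005 with 90 µM, which is 352, 459, 330 and 151 CPM. At 90 µM it stood at 0.456 times its level at 60 µM (interval 0.439 to 0.473). Without this gene the group still took 0.671%, 0.633%, 0.617% and 0.234% of the 4 libraries. LOC116192407 had 159, 241, 181 and 74.2 CPM and, like the gene before, was highest at 30 µM. LOC116213173 had 141, 185, 116 and 42.6 CPM and shared that shape.

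Others of this size took several shapes up to 60 µM. LOC116214278 had 218, 194, 172 and 62.9 CPM, lower at each dose than at the one before. LOC116211378 had 182, 159, 159 and 70.4 CPM, with 30 and 60 µM almost equal. LOC116210537 had 140, 155, 139 and 68.2 CPM and lay close to the 2-fold limit with a smallest ratio of 2.04. The last 6 of the 12 with the most reads (LOC116209393, LOC116208564, LOC116200096, LOC116200017, LOC116213719 and LOC116197304) had between 109.5 and 214 CPM at 0, 30 and 60 µM and between 46.7 and 72.6 CPM at 90 µM. Counting error was small for these genes, but against 60 µM the intervals of LOC116210537 and LOC116213719 reached 0.518 and 0.516. LOC116192407, LOC116210537 and LOC116213719 were not chosen with TMM or DESeq2 scaling. LOC116193033, the 13th by reads, was the one of this size with a deep drop, with 3097, 2907, 3151 and 831 counts and a smallest ratio of 3.55. It was picked out after its values were seen.

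The steadiest member, also picked out after its values were seen, was LOC116202746, with 34.7, 35.4, 34.4 and 13.0 CPM. Its largest value at 0, 30 and 60 µM was 1.03 times its smallest. Over all 248 genes that spread had a median of 1.34, was under 1.3 in 104 and at least 1.5 in 47.

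Set against each other dose in turn, genes were called more than 2-fold lower at 90 µM when the whole counting interval of the ratio lay below 0.5. Since the rule used these ratios, the counts only describe how firmly the reads place the members. Against 0 µM, 183 of the 248 were called, with a median ratio of 0.333, where 5.31% of the 19286 genes with at least 1 CPM in some library were called. Against 30 µM, 166 were called, with a median ratio of 0.358 and a background of 3.95%. Against 60 µM, 152 were called, with a median ratio of 0.368 and a background of 4.98%. The intervals of all 248 lay below 1 against each dose. The rule's limits of a 2-fold drop and a mean of 2 CPM left little room for another outcome, and no share over all genes is given for it. With TMM scaling 148 members were called against 0 µM (background 4.10%), 130 against 30 µM (3.10%) and 124 against 60 µM (4.17%).

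Against all 3 doses at once 107 members were called (43.1% of them), beside 0.876% of the genes tested. With TMM scaling 69 members were called against all 3, where the background was 0.596%. The median of all genes averaging at least 2 CPM was itself shifted when libraries were scaled by total counts, to log2 values of -0.14 for 90 over 0 µM, -0.11 for 90 over 30 µM and -0.12 for 90 over 60 µM. The same log2 medians over the 248 genes were -1.55, -1.45 and -1.41.

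With TMM scaling in place of total counts the rule found 179 genes, of which 176 were among the 248. The 72 that dropped out had ratios of 2.18 or less. TMM scales all genes of a library by the same factor, so a loss among ratios near the limit follows from the scaling itself. It says nothing more about the deeper drops. DESeq2's size factors gave 174 genes, 171 of them shared.

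**Figure D3:**
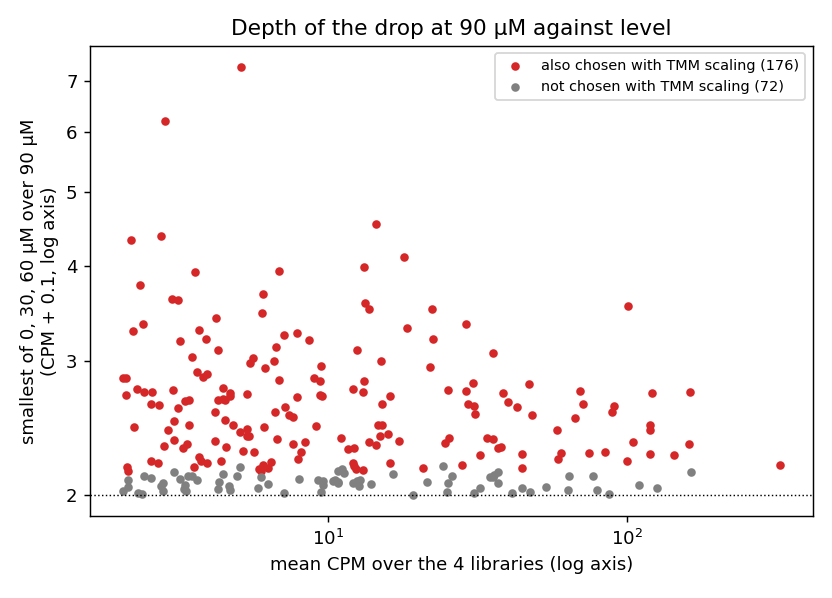
Ratio of the smallest level at 0, 30 and 60 µM to the level at 90 µM (CPM + 0.1, log axis) against mean CPM (log axis) for the 248 genes, with the limit of 2 dotted. The 72 grey genes are not chosen with TMM scaling and lie at 2.18 or less, and the 2 ratios above 5 belong to genes averaging 5.13 and 2.85 CPM.

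Genes with few reads were chosen more often than genes with many. The median of the mean CPM was 8.80 over the members and 26.3 over the genes that could have passed. Between 2 and 5 CPM, 82 of 1947 genes were members (4.21%). The share was 2.27% between 5 and 10 CPM (52 of 2290), 1.11% between 10 and 30 (58 of 5215), 0.750% between 30 and 100 (43 of 5733) and 0.578% at 100 CPM or more (13 of 2250). It fell with every step up in level. The rule holds every ratio at 2 or more, which leaves the medians little room to differ. The median ratio was 2.46 in the lowest bin, 2.27 between 30 and 100 CPM and 2.33 in the highest. From the lowest bin to the highest, the largest ratio was 6.21, 7.30, 4.55, 3.07 and 3.55. With TMM scaling 58, 42, 39, 27 and 10 of these members, from the lowest bin to the highest, were still chosen. The part of counting error in this gradient was not tested.

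**Figure D4:**
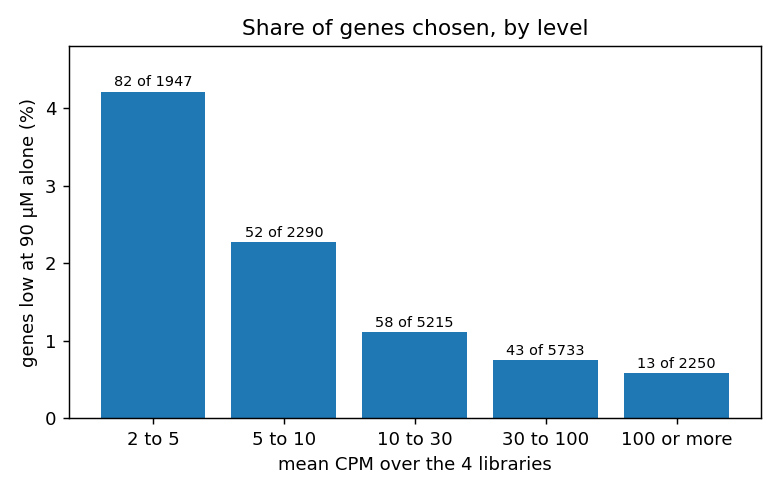
Share of genes that were low at 90 µM alone (vertical axis, percent) by mean CPM over the 4 libraries, with the numbers of genes above each bar. The share was 4.21% between 2 and 5 CPM and 0.578% at 100 CPM or more.

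The rule limits how far apart the levels at 0, 30 and 60 µM may lie but not their order. Water-sprayed leaves were the highest of these 3 in 107 members, the 30 µM library in 76 and the 60 µM library in 65. That is 43.1%, 30.6% and 26.2% of the members. Among all 12971 genes within the same spread limit, whatever their level at 90 µM, the shares were 34.0%, 31.6% and 34.5%. The lowest of the 3 was 60 µM in 110 members, 30 µM in 94 and 0 µM in 44, which is 44.4%, 37.9% and 17.7%, against 36.6%, 36.7% and 26.7% of all genes within the limit. The share lowest at 30 µM was thus near that of the genes at large. None of these shares was matched for level.

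A level that was lower at every step from 0 to 90 µM, as in LOC116202235 and LOC116214278, was the most common order, with 60 members (24.2%). The same order of 0, 30 and 60 µM was found in 17.4% of all genes within the spread limit. The reverse order below 90 µM, highest at 60 µM and lowest at 0 µM, was the rarest, with 18 members (7.26%, against 14.3%). The other 188 members had another order. With TMM scaling 58 of the 248 (23.4%) were lower at every step, against 15.9% of the 12993 genes within the limit. The 72 members not chosen with TMM scaling are still counted among the 248 here. In that scaling 102 members (41.1%) were highest at 0 µM, against 30.3% of those genes. TMM scaling was here an alternative chosen after seeing the data. The counts of orders were not tested or matched for level, and the differences behind them are small by the rule's own limit.

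By class, 240 members were protein-coding, 7 were long non-coding RNAs and 1 was a small nucleolar RNA. Protein-coding genes were 96.8% of the members and 97.6% of the genes averaging at least 2 CPM, and long non-coding RNAs 2.82% and 2.34%. For those classes the make-up was therefore close to that of the genes at large. The small nucleolar RNA was 1 of 4 such features averaging at least 2 CPM. None of the 9 ribosomal RNA or 2 small nuclear RNA features of that level was a member.

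The small nucleolar RNA was LOC116206507, of a class that guides chemical modification of ribosomal RNA. It had 194 counts with water, 186 with 30 µM ABA, 232 with 60 µM and 101 with 90 µM, and its smallest ratio of 2.01 sat at the limit. Of the long non-coding RNAs besides LOC116202235, LOC116209921 had 4.70, 6.78, 4.23 and 1.17 CPM and LOC116198968 had 109, 98, 154 and 32 counts. In CPM both stood below 0.3 times their level at every other dose. LOC116195858, and LOC116194279, LOC116210127 and LOC116215333, which were added after their values were seen, had between 21 and 44 counts at 90 µM and smallest ratios of 2.09 to 2.73.

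Protein-coding members had fewer annotated transcript forms than protein-coding genes at large. A single transcript model was listed for 175 of 240 (72.9%), against 64.9% of 17110, and the mean number of models was 1.55 against 1.76. This was not matched for level.

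The members were spread over all 8 chromosomes, making up between 1.15% and 1.78% of the genes averaging at least 2 CPM on each. Of the 246 that are placed on a chromosome, 6 stood next to another member in the order of the genes counted, as 3 pairs. How many would do so in other sets of as many genes was not computed, so clustering was not tested. LOC116215954 and its neighbour LOC116215952 had 340, 377, 604 and 164 counts and 190, 162, 253 and 74 counts. These 2 genes overlap in the annotation and could share reads. LOC116198570 and LOC116198672 do not overlap, and had 97, 81, 123 and 32 counts and 168, 143, 214 and 72 counts. LOC116202897 had 142, 146, 185 and 66 counts, next to LOC116203798 with 234, 267, 308 and 138. In raw counts all 6 genes were highest at 60 µM, the deepest library. In CPM 3 of them were not, since LOC116198570 and LOC116198672 were highest at 0 µM and LOC116203798 at 30 µM.

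Within 5 places of each other in gene order there were 36 members, in 19 pairs, again with no count for other sets of genes. LOC116201703 and LOC116201697, picked out after their values were seen, stand either side of LOC116199542, a feature with 0 counts in all 4 libraries. LOC116201703 had 1090, 1304, 1160 and 409 counts and LOC116201697 had 195, 233, 208 and 73. Their ratios were nearly equal, 0.312 and 0.311 for 90 over 0 µM, 0.284 and 0.283 for 90 over 30 µM, and 0.376 and 0.374 for 90 over 60 µM. Whether they are copies that share reads was not tested.

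Not every gene beside a member was 2-fold lower at 90 µM. LOC116195015 lies between LOC116193033 and LOC116193825, all 3 picked out after their values were seen. LOC116195015 had 140, 154, 166 and 139 counts, lowest at 90 µM but by far less than both members on its sides. These counts are not scaled for the library totals. Over all neighbours, though, lower values were more frequent. Of the 328 genes next to a member that were no members themselves and averaged at least 2 CPM, 41 (12.5%) had a level at 90 µM of at most 0.5 times the mean of the other 3 libraries, against 5.41% of all 17287 non-members. Their median log2 ratio was -0.25, against -0.12.

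Neighbours averaged somewhat fewer reads, with a median of 21.2 CPM against 26.9. At 10 CPM or more the shares were 9.96% of 241 neighbours and 3.23% of 13184 non-members. Of the 41 lower neighbours, 3 overlap a member in the annotation. As for overlap in general, 17 of the 246 placed members (6.91%) overlap another counted feature, against 7.70% of the 17399 placed genes of that level.

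The limits of the rule cut through a continuous range. Just inside the 2-fold limit lay LOC116202804, LOC116203963 and LOC116199088, with ratios of 2.00, 2.00 and 2.01, and just outside it LOC116209814, LOC116198823 and LOC116209539, each with a ratio that rounds to 2.00. LOC116202804 had 527, 607, 528 and 246 counts, and LOC116198823 had 473, 519, 510 and 238. Their ratios to 60 µM, 0.497 and 0.498, have intervals of 0.425 to 0.579 and 0.425 to 0.582. At the spread limit, LOC116193084, LOC116194452 and LOC116210455 were inside with largest-to-smallest ratios of 1.69, 1.68 and 1.67. LOC116187517, LOC116209933 and LOC116211301 were outside with 1.70, 1.71 and 1.71. LOC116187517 had 17.2, 16.6, 10.1 and 1.92 CPM, a drop of 5.05-fold at the least, deeper than in all but 2 members. In all, 385 genes were at least 2-fold lower at 90 µM than in each other library, and 137 of them were left out for their spread.

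The same limits turned on the other libraries give the numbers of genes that set each one apart. Genes low in 1 library alone numbered 45 for water, 48 for 30 µM ABA, 105 for 60 µM and 248 for 90 µM. Genes high in 1 library alone numbered 49, 31, 88 and 38 at those doses. The 90 µM library was thus the one with the most genes low alone, and low genes made up 86.7% of the genes that set it apart. With TMM scaling the low genes numbered 45, 51, 110 and 179 and the high ones 38, 25, 82 and 59, so that 75.2% were low at 90 µM.

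The excess of genes low at 90 µM alone therefore remained in number under TMM scaling but was smaller. The 105 genes low at 60 µM alone had a similar median log2 ratio to their nearest other library (-1.22, against -1.24 for the 248). They had more reads, with a median of 35.1 CPM against 8.80 for the members. The genes low at 0 µM alone and at 30 µM alone had medians near that of the members, 8.56 and 7.90 CPM. A response to the dose and a difference of that single library or its plants cannot be told apart.

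**Figure D5:**
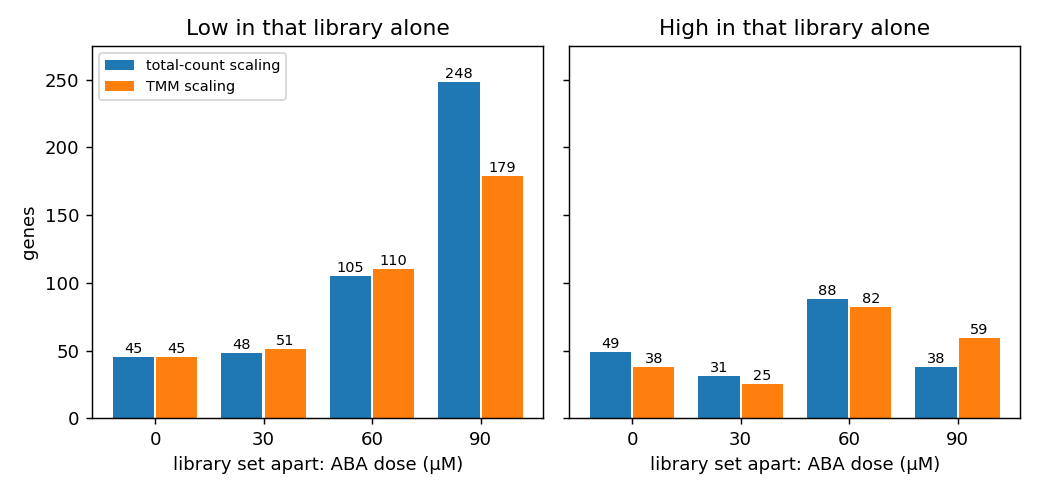
Number of genes low (left panel) or high (right panel) in 1 library alone, by the ABA dose of that library and by scaling (blue for total counts, orange for TMM). The 90 µM library had 248 low genes with total counts and 179 with TMM, against 45 to 110 in the other libraries, and 38 or 59 high genes.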

How the data were processed

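RNA sequencing counts of 4 leaf libraries, 1 per ABA dose, were used. The authors deposited whole-number read counts for each gene without normalization. FastQC, HISAT2 and featureCounts are named in the submitters' processing notes; no source used here gives a version, a genome build, the strand setting or the handling of reads with several matches. Reads of near-identical, overlapping or antisense genes could therefore be split or shared. The table holds 27893 features and 0 columns of other samples; 27509 features match a symbol in the RefSeq gene table of assembly ASM765513v2, including all 248 members. That table was used for class, transcript models and gene order, with features in the count table ordered on the chromosomes. The build behind the counts is not named, so coordinates are left out.

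Counts were divided by column totals (CPM) with Python 3.11.15, pandas 2.3.3 and scipy 1.17.1. TMM factors came from edgeR 4.0.16 and size factors from DESeq2 1.42.0, both over the 19286 features with at least 1 CPM in some library. No model was fitted, since each dose has 1 library. Scripts were tested on simulated data with counting noise only and planted drops of at least 3 times in genes averaging at least 10 CPM. Shallower drops, or drops in genes with fewer reads, were not planted. The members and lists were chosen with earlier results of these data known. Genes named were the 12 members with the highest mean CPM, the 12 with the largest ratio, 3 on either side of each limit, up to 5 that are not protein-coding and up to 6 next to another member; exceptions are stated. Searches of promoter and protein sequence and of product lists, including leaf markers, were planned and not run, as no sequence or product table was used here.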

Additional observations from a re-analysis of the deposited data

How the results depend on the processing

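The number of genes low at 90 µM alone was 248. Changes to one limit gave 162 with 1 CPM added, 114 with a mean of at least 10 CPM, 875 at 1.5 times lower and 36 at 3 times lower. Leaving out the 0, 30 or 60 µM library gave 373, 552 and 662, all 248 members among them each time, because a library left out can no longer exclude a gene. The number stayed within 1.5 times of 248 with TMM (179) or DESeq2 scaling (174), nothing added (269), a mean of at least 1 CPM (293), no minimum (372), a spread limit of 1.5 (201) or 2 (291), and no abundant genes left out (248). The median log2 ratio of -1.24 was -1.12 with TMM and with DESeq2 scaling, -1.05 with 1 CPM added, and -1.28, -1.34 and -1.37 when the 0, 30 or 60 µM library was left out. Members called against all 3 doses numbered 107, and 69 with TMM or 68 with DESeq2 factors. Protein-coding genes were 96.8% of all members and 97.2% of those 107. Members next to another member numbered 6, and 36 at most 5 places apart. Genes high at 90 µM alone numbered 38, and 59 with TMM factors, an alternative chosen after seeing the data. The cause was not tested beyond each setting's own construction. No paired analysis was possible because each dose has 1 library and no result comes from a test. The alternative for promoter motifs was not run.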
